A study of Mus musculus with 56 samples.

Results

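miR-21 and 6 genes known as its targets (Pdcd4, Btg1, Reck, Spry1, Spry2 and Tpm1) were followed in mouse livers with and without miR-122 removal. They were chosen by name, as the microRNA and target genes that earlier work on miR-21 describes. Earlier results of these data were known when they were chosen. They are 7 of the 22367 features measured (479 microRNAs and 21888 gene symbols). miR-21 was read in the small RNA libraries of 42 livers, and the target genes in the RNA-seq libraries of 14 livers. The labels give the background of all mice as 129Sv/J, and each library is the liver of 1 animal. Floxed mice, with LoxP sites around miR-122, received rAAV8-Ef1a-Cre by tail vein, a viral vector with Cre recombinase under a promoter that is active in most cell types. Uninjected floxed mice are called day 0. Small RNA libraries came from 3 floxed mice each (replicates A, B and C) at days 0, 7, 14, 21 and 45, and from 1 mouse each at days 1, 2, 3, 10, 17, 25, 36, 100 and 200. Wild-type livers came from 2 animals each at E14, E18, P1, P8 and P270 and 1 each at P12, P17, P21 and P28. The postnatal ages are those of the labels. A supplement of the study heads the same columns in other units, so these ages are in doubt. LKO livers (Cre from the Albumin promoter, which is active in hepatocytes) came from 2 mice, and 2 further mice, labelled LKO_floxCre, are called LKO plus Cre here. RNA-seq came from 3 floxed mice each at days 0, 21 and 45, 1 each at days 100 and 200, which were joined, and 3 germline miR-122 knockout mice, in which every cell of the animal lacks miR-122. The knockout mice are another line than the floxed mice, so line and genotype cannot be told apart. Neither uninjected mice of the later days nor mice given a vector without Cre were analysed here, so the loss of miR-122, the vector and the time since injection cannot be told apart either.

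microRNAs are short RNAs that guide Argonaute proteins to messenger RNAs. They pair mainly through the seed, which is bases 2 to 8 from their 5′ end, and the bound messenger is translated less and decays faster. miR-21 is abundant in many tissues, is made from a transcript that overlaps the gene Vmp1, and is known to be raised by inflammation and in tumours. Its known targets curb growth or the cytoskeleton: Pdcd4 holds back translation initiation, Btg1 slows proliferation, Reck restrains enzymes that digest the matrix, Spry1 and Spry2 dampen signals of receptor tyrosine kinases, and Tpm1 is an actin-binding tropomyosin.

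The mature sequences are shown because the sites below are matches to the seed, which is in capitals. miR-21a-5p is the main product of the miR-21 hairpin, miR-21a-3p comes from the other arm, and miR-21b and miR-21c are relatives from other places in the genome (RefSeq, GRCm38.p6).
mmu-miR-21a-5p: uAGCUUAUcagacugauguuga
mmu-miR-21a-3p: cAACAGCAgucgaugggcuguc
mmu-miR-21b: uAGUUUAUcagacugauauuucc
mmu-miR-21c: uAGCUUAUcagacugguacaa
miR-21c has the seed of miR-21a-5p and differs from it at 5 of the 21 bases they share, whereas miR-21b has another seed and differs at 4 of 22. The table of microRNAs lists 1 row for miR-21 and does not say which arms of the hairpin it counts. No row of it is named for miR-21b or miR-21c. The 92-base hairpin matches the mm9 genome exactly at 1 place, chr11:86397569-86397660 on the minus strand. That place lies inside Vmp1 (chr11:86397367-86497338, minus strand), 202 bases from its 3′ end, and in an exon, within the untranslated part, of 1 of its 8 annotated transcripts.

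Of the 6 target genes, 5 have a match to the miR-21 seed in the longest 3′ untranslated region that GENCODE gives them on mm9. Each is shown 5′ to 3′ on the strand of the messenger, with the bases that pair with the seed in capitals and, where the messenger has it, the A opposite the first base of miR-21.
Pdcd4: gtgtgggtgttctgATAAGCTA
Reck: ttttacagtttgaaATAAGCTA
Spry1: atgtaagtgcttaaATAAGCTA
Spry2: gagacccacattgcATAAGCTA
Btg1: ttgtggtgctttcgATAAGCT
The printed stretches lie at chr19:54003908-54003929 (plus strand) for Pdcd4, chr4:43957265-43957286 (plus) for Reck, chr3:37542781-37542802 (plus) for Spry1, chr14:106291715-106291736 (minus) for Spry2 and chr10:96084891-96084911 (plus) for Btg1. In Pdcd4, Reck, Spry1 and Spry2 the match runs over 8 bases (ATAAGCTA) and in Btg1 over 7 (ATAAGCT). Tpm1 has no such match in any of its 16 annotated transcripts with a 3′ untranslated region, which says only that these letters are not there. On the same strand, ATAAGCTA was found in 1.74% of the 3′ untranslated regions of 19915 genes and ATAAGCT, which it contains, in 6.09%. A further form, TAAGCTA, overlaps the first and was found in 5.66%, and 9.58% held at least 1 of the 3. In stretches of the same length as their own, 5.4% of genes held a match for Pdcd4 (718 bases), 6.4% for Spry2, 8.6% for Spry1, 11.1% for Reck and 33.5% for Btg1 (4170 bases). The matches are a description and not measured sites. In the deposited table the genes span chr19:53966721-54004351 (Pdcd4), chr10:96079635-96085445 (Btg1), chr4:43888402-43957678 (Reck), chr3:37538872-37543521 (Spry1), chr14:106291164-106296036 (Spry2) and chr9:66870400-66897020 (Tpm1), on mm9.

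miR-21 was given as a percentage of the microRNA reads other than those of miR-122, since miR-122 fell from 59.2–73.3% of all reads at day 0 to 0.383–1.23% at day 45. It was 4.46% in the day 100 liver, 19.1% in the day 200 liver, 3.09% and 9.38% in the LKO livers and 0.837% and 1.11% in the LKO plus Cre livers, so that the livers of days 100 and 200 held more miR-122 than those of day 45. The libraries held 34105 to 929444 reads, and miR-21 was read 643 to 262645 times. With this depth the 95% Wilson interval reached less than 0.5 percentage points from the share in 41 of 42 libraries and 0.519 points in P270 replicate A. These intervals cover counting error only, and copies of 1 molecule made by PCR are not independent. The listed RPM of P28, E14 replicate A and P270 replicate A added up to 661610, 677316 and 517113, and those of every other library to between 1000477 and 1000482. The shares of these 3 libraries are therefore shares of a table that lists fewer of their reads.

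miR-21 was the most abundant microRNA other than miR-122 in the median floxed liver and in all 4 LKO and LKO plus Cre livers, and had a median rank of 3 in wild-type livers. Its lowest rank was 15 in floxed livers (day 0 replicate C) and 16 in wild-type livers. At day 0 the 3 livers differed widely, with 4.54% in A, 22.4% in B and 1.70% in C, a 13.2-fold range. The SD of its log2 level among these 3 mice (1.88) was larger than that of 91.3% of the 253 microRNAs tested, whose median was 0.89. No group sampled after injection was as uneven, with ranges of 2.13-fold at day 7, 1.64-fold at day 14, 3.85-fold at day 21 and 2.38-fold at day 45.

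After rAAV8-Ef1a-Cre, miR-21 stood at 15.3%, 11.02% and 7.19% at day 7 (A, B, C). At day 14 it was 13.4%, 15.1% and 22.0%. At day 21 it was 12.03%, 8.58% and 33.0%, the last being the highest of all 42 livers. At day 45 it was 12.5%, 5.26% and 7.60%. Of the days with 1 liver, day 1 had 6.03% (95% Wilson interval 5.90–6.16%), day 2 had 12.6% (12.5–12.7%), day 3 had 15.7% (15.5–15.8%) and day 10 had 13.9% (13.8–14.1%). Day 17 followed with 16.8% (16.6–17.0%) and day 25 with 15.1% (15.0–15.2%). The day 36 liver held 4.09% (4.04–4.15%), that of day 100 12.5% (12.4–12.6%) and that of day 200 5.26% (5.21–5.32%). Of the 21 injected mice, 20 lay inside the range of the 3 uninjected mice and 1, day 21 replicate C, above it. The same 21 can be set beside the median uninjected mouse (4.54%), and 20 of them lay above it.

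**Figure D1:**
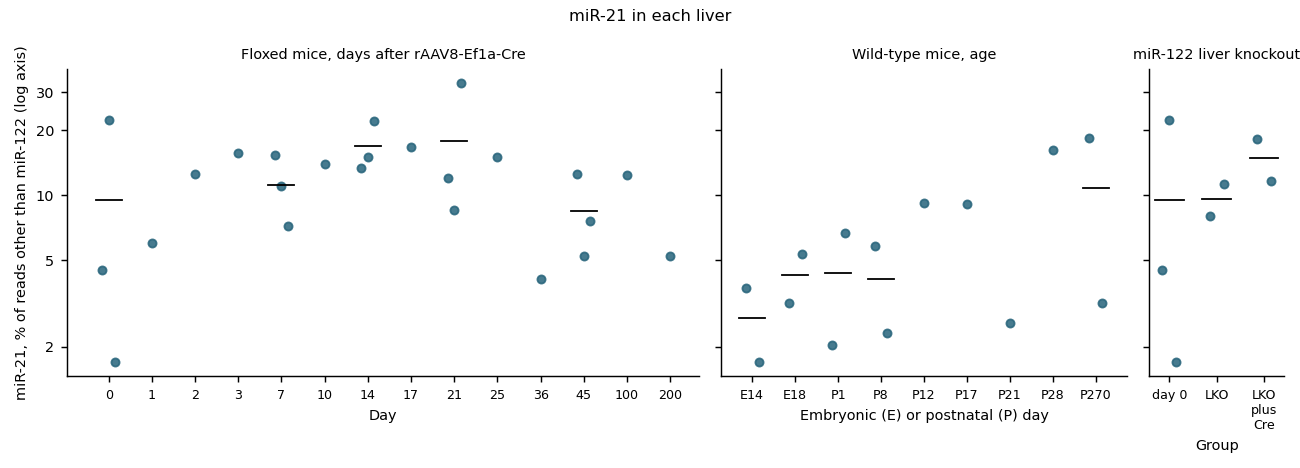
miR-21 as a percentage of the reads other than miR-122 (log axis) in each small RNA library, by day after rAAV8-Ef1a-Cre in floxed mice, by age in wild-type mice, and in LKO and LKO plus Cre mice beside day 0. Points are livers and lines are means of groups with 2 or 3 mice; the 3 day 0 livers span 1.70% to 22.4%, and 20 of the 21 injected livers fall inside that span.

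Whether miR-21 changed with loss of miR-122 was asked in 1 limma fit of days 0, 7, 14, 21 and 45 (log2 of RPM of other reads + 1). Its mean over 3 livers was 9.54 ± 11.2% (SD) at day 0 and, in order of time, 11.2 ± 4.06%, 16.9 ± 4.57%, 17.9 ± 13.2% and 8.45 ± 3.69% after injection. The log2 changes from day 0 were 0.94 (95% interval −0.54 to 2.42), 1.57 (0.09 to 3.04), 1.44 (−0.04 to 2.91) and 0.51 (−0.96 to 1.99), with an SE of 0.71 each. None passed the threshold (limma adjusted p = 0.948, 0.303, 0.292 and 0.713; exact permutation p = 0.5, 0.4, 0.3 and 0.7, where 3 mice against 3 allow no less than 0.1). In these comparisons limma called 0.395%, 1.19%, 5.14% and 20.6% of the 253 microRNAs. The call turned on 1 uninjected liver: without day 0 replicate B, the changes at days 14 and 21 were 2.57 (adjusted p = 0.0166) and 2.44 (adjusted p = 0.0123). Without day 0 replicate C, the change at day 45 was −0.34. Taken over all reads including miR-122, whose fall lifts every other share, the changes at days 14, 21 and 45 were 2.78, 2.86 and 2.09 and passed the threshold (adjusted p = 0.0110, 0.00488 and 0.0185).

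Across the 24 floxed livers miR-21 and miR-122, each as a log2 share, had a Pearson correlation of −0.03 and a Spearman correlation of −0.06 (permutation p = 0.885 and 0.763, two-sided). Pearson's value was −0.02 with days 100 and 200 left out (22 mice) and −0.18 without day 45 replicates A and B, the mice farthest from the median.

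In wild-type livers (A, B), E14 had 3.75% and 1.69% miR-21, E18 had 3.17% and 5.38%, P1 had 6.70% and 2.04%, and P8 had 5.86% and 2.31%. Among the ages with a single liver, the share was 9.19% (9.08–9.31%) in P12, 9.11% (8.99–9.24%) in P17, 2.57% (2.38–2.77%) in P21 and 16.2% (15.8–16.6%) in P28. P270 replicate A held 18.4% and replicate B 3.18%. The highest wild-type shares, those of P270 replicate A and P28, come from tables that list fewer of their reads. The counting interval of P28 does not cover this. The table of E14 replicate A is short as well. All 8 livers from E14 to P8 held between 1.69% and 6.70%, and the 2 P270 livers lay apart, with replicate B inside that range and replicate A above it. The log2 differences from P270 were −1.60 at E14, −0.89 at E18, −1.05 at P1 and −1.05 at P8 (SE 1.05 each, n = 2 against 2). None passed the threshold (limma adjusted p = 0.250, 0.526, 0.472 and 0.517), while 43.1%, 44.6%, 37.9% and 31.8% of the 327 microRNAs tested did. The exact permutation p was 0.667 each, and 2 against 2 allow no less than 0.333. The median microRNA was higher than at P270 by 2.64, 3.10, 2.68 and 2.07 on the log2 scale, and with each library centred on its median the differences of miR-21 were −4.45, −4.22, −4.02 and −3.66 (adjusted p = 0.00997, 0.0132, 0.0167 and 0.0363). Without P270 replicate A, the differences at E18, P1 and P8 were 0.38, 0.22 and 0.21. Scaled to the authors' total in place of the listed reads, the differences at E14, E18, P1 and P8 were −0.68, 0.32, 0.16 and 0.15. Over all reads including miR-122 they were 0.33, 0.43, −0.43 and −1.18. With neither of these scalings did any difference pass the threshold.

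LKO livers held 8.04% and 11.3% miR-21 (A, B), and LKO plus Cre livers 18.3% and 11.7%. The LKO livers lay inside the range of day 0, and both LKO plus Cre livers lay above both LKO livers. The log2 difference was 0.77 (SE 0.89) for LKO against day 0 and 0.62 (SE 0.98) for LKO plus Cre against LKO, neither past the threshold (limma adjusted p = 0.661 and 0.992; exact permutation p = 0.7 and 0.333, the latter the smallest that 2 against 2 allow). limma called 15.6% of 256 microRNAs in the first comparison and 0% in the second, where 10 had an unadjusted p below 0.05. Without day 0 replicate B the first difference was 1.78 (adjusted p = 0.0285) and without replicate C it was −0.08. Over all reads including miR-122 it was 2.27 (limma adjusted p = 0.0466), and with each library centred on its median it was −0.12. miR-590, another microRNA with this seed, had 16 reads in LKO replicate B, 3 in LKO plus Cre replicate A and none in the others, which allows up to 3 reads in each.

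The microRNAs whose log2 level ran most like miR-21 were ranked by Pearson correlation. All points are shares of the same libraries. Over the 24 floxed livers and 257 microRNAs these were miR-669a-1 (0.78), miR-339 (0.76), miR-455 (0.76), miR-24-1 (0.74) and miR-27a (0.73), against a median of 0.16. miR-669a-1 never exceeded 0.00654% of reads, whereas miR-24-1 reached 0.908%. Over the 14 wild-type livers and 319 microRNAs they were miR-203 (0.92), miR-101a (0.90), miR-22 (0.90), miR-148a (0.88) and miR-30c-1 (0.83), against a median of −0.22. In the other set of livers the first 5 had 0.46 (miR-339), 0.51 (miR-455), 0.49 (miR-27a), −0.10 (miR-24-1) and −0.43 (miR-669a-1). The wild-type 5 had 0.34 (miR-148a) to 0.71 (miR-101a) over the floxed livers. The wild-type ranking includes the libraries whose tables list fewer of their reads, and it was not repeated without them.

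Among the RNA-seq libraries the 3 knockout livers differed from each other. In knockout replicates A and B, Stag2, a cohesin subunit among the predicted miR-21 targets, was at 2.21 and 2.83 FPKM, against 14.2 in replicate C and 11.6 to 18.3 in the 11 floxed livers. Albumin was listed at 0 in every library, and Serpina1a, another of the 8 hepatocyte markers, in every floxed liver but that of day 100 (987 FPKM), against 1286 to 2036 FPKM in the knockout livers. The hepatocyte markers together summed to 14936 FPKM (day 100) or more. At day 45, when 23.7% of all tested genes were higher, limma called higher 7 of 7 tested macrophage, 6 of 7 lymphocyte, 8 of 8 stellate cell and fibroblast, 3 of 8 endothelial and 6 of 7 cholangiocyte markers, and 0 of 7 hepatocyte markers. The summed macrophage markers went from 162–276 FPKM at day 0 to 550–632 at day 45, the stellate cell and fibroblast markers from 134–185 to 361–589, and the cholangiocyte markers from 50.6–65.9 to 415–1355. In the knockout, where 19.3% of all tested genes were higher and 14.5% lower, it called higher 5 of 7 macrophage, 4 of 7 lymphocyte, 5 of 8 stellate cell and fibroblast and 6 of 7 cholangiocyte markers, and of the hepatocyte markers Serpina1a. Of the 8 endothelial markers it called 1 higher and 2 lower there, with a median log2 difference of −0.33. At day 21 (6.2% of all genes higher) the macrophage, lymphocyte, stellate, endothelial and cholangiocyte counts were 2, 6, 1, 2 and 2, and at days 100 and 200 (28.4%) they were 6, 6, 8, 3 and 7, when 1 hepatocyte marker was lower. Of the tested markers, 5 of 7 lymphocyte markers (Cd3e, Cd3d, Cd8a, Cd4 and Cd79a), Itgam, Col1a1, Cldn7 and Serpina1a were below 1 FPKM in each day 0 liver. They passed the minimum level only through other livers, so that the counts of their lists are no support for a rise. Their part in the results below was not tested, and in whole liver fewer cells of a type and less RNA per cell cannot be told apart.

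The target genes differed in level. At day 0 Pdcd4 averaged 45.4 FPKM (fragments scaled to transcript length and library size, so that levels can be compared between genes), Tpm1 20.8, Btg1 14.1, Spry1 2.43, Reck 1.23 and Spry2 0.554. Pdcd4 ranked above 93.2% of the genes in the table and Spry2 above 48.9%. Spry2 was below 1 FPKM in each day 0 liver and entered the tests, which needed a mean of 1 FPKM over the 14 livers, because later livers raised that mean to 1.23. All 6 genes were tested. In each comparison below the day 0 mice are the same.

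Spry1, Tpm1 and Reck were higher at day 45 than at day 0, as was Spry2, which entered the test only through the livers in which it was high. The call of Reck held in only 3 of 12 alternative fits, as given below. Pdcd4 and Btg1 did not pass the test. limma called 4 of the 6 genes higher and 0 lower at day 45, beside 23.7% higher and 2.99% lower among the 11354 genes tested. With each library centred on its median it called 3 higher and 2 lower (Pdcd4 and Btg1), beside 14.5% and 7% of all genes. At day 21 it called none of the 6, of which 3 had an unadjusted p below 0.05, beside 6.2% higher and 1.42% lower. At days 100 and 200 it called the same 4 higher and 0 lower, beside 28.4% and 3.21%. In the knockout it called 2 higher and 0 lower, beside 19.3% and 14.5%. Spry2 apart, the counts higher are 3 of 5 at day 45 and 3 of 5 at days 100 and 200. With no minimum level for any gene, Spry2 was still called at day 45 (limma adjusted p = 0.00198) and at days 100 and 200 (9.67e-04). The median log2 change of all tested genes was 0.06 at day 21, 0.20 at day 45, 0.31 at days 100 and 200 and 0.02 in the knockout. With each library centred on its median, the share of calls that were higher went from 88.8% to 67.4% at day 45 and from 89.8% to 64.3% at days 100 and 200, and the changes of the 6 genes relative to that median are given where they matter.

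**Figure D2:**
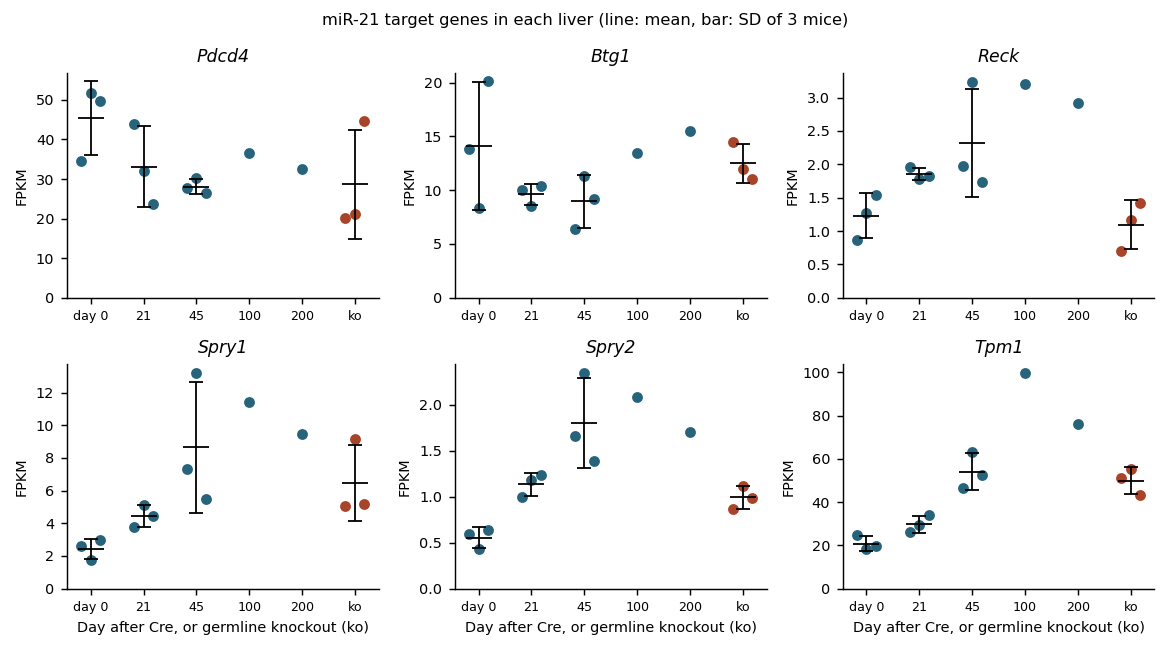
FPKM of the 6 target genes in each RNA-seq library, at day 0 and 21, 45, 100 and 200 days after rAAV8-Ef1a-Cre and in the germline knockout (ko). Points are livers, and the line and bar are mean and SD of 3 mice; Tpm1, Spry1 and Spry2 lie above all day 0 livers in every later liver, and Pdcd4 in knockout replicate C lies at 44.6 FPKM above A and B.

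Pdcd4 binds the helicase eIF4A and keeps it from unwinding messengers. It was at 34.6, 51.8 and 49.8 FPKM in the day 0 livers (A, B, C), at 43.9, 31.9 and 23.6 in those of day 21 and at 27.7, 30.2 and 26.4 in those of day 45. The day 100 liver had 36.6 FPKM and the day 200 liver 32.6. All 3 livers of day 45 lay below all 3 of day 0. The log2 changes from day 0 were −0.46 (SE 0.29; day 21), −0.65 (SE 0.29; day 45) and −0.36 (SE 0.33; days 100 and 200) (limma adjusted p = 0.402, 0.122 and 0.438). The change at day 45 was in the lowest 3.43% of all genes. It passed the threshold relative to the median (−0.89, adjusted p = 0.0397) and in a fit of only the 2 groups (−0.65, adjusted p = 0.0248). Leaving out 1 library gave −0.68 to −0.25 at day 21 and −0.83 to −0.55 at day 45. In the knockout Pdcd4 was at 20.1 and 21.2 FPKM in A and B and 44.6 in C, and the log2 difference was −0.72 (SE 0.29, limma adjusted p = 0.0725). Without replicate C it was −1.08 and passed the threshold (adjusted p = 0.00164). Without replicate A or B it was −0.52 or −0.56 and did not pass.

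Btg1, which recruits the machinery that shortens the poly-A tail, was at 13.8, 8.32 and 20.2 FPKM in the uninjected livers. Day 21 livers had 10.01, 8.51 and 10.4 FPKM, day 45 livers 6.41, 11.3 and 9.19, and the livers of days 100 and 200 had 13.5 and 15.5. Every group overlapped day 0. The log2 changes in the same order were −0.43 (SE 0.26), −0.55 (SE 0.26) and 0.11 (SE 0.30) (limma adjusted p = 0.385, 0.151 and 0.819). Relative to the median of all genes the change at day 45 was −0.79 (adjusted p = 0.0483) and that at days 100 and 200 was −0.23 (adjusted p = 0.617). Without day 0 replicate B, the lowest of that group, the change at day 45 was −0.86 and passed the threshold (adjusted p = 0.0257). Without day 0 replicate C it was −0.27 (limma adjusted p = 0.517) and without day 45 replicate A −0.35 (0.434). In the knockout it was at 14.5, 11.9 and 11.02 FPKM (log2 −0.09, SE 0.26, limma adjusted p = 0.795).

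Reck is a membrane-anchored inhibitor of matrix metalloproteinases. It was at 0.872, 1.27 and 1.54 FPKM before injection, at 1.96, 1.78 and 1.83 on day 21 and at 1.97, 3.24 and 1.74 on day 45. The last livers, of days 100 and 200, had 3.20 and 2.93 FPKM. All injected livers lay above the highest uninjected liver. The log2 changes were 0.37 (SE 0.19), 0.56 (SE 0.19) and 0.88 (SE 0.21), and those at day 45 and at days 100 and 200 passed the threshold (limma adjusted p = 0.293, 0.0464 and 0.00762). The call at day 45 was lost in 9 of 12 alternative fits, in which the change was 0.32 to 0.85. It was lost without day 0 replicate A or B (adjusted p = 0.173 and 0.0938) and without day 45 replicate A or B (0.0590 and 0.206), and with centring (change 0.32, adjusted p = 0.184). The call at days 100 and 200 was lost without day 100 (0.83, adjusted p = 0.0734). In the knockout Reck was at 0.695, 1.16 and 1.42 FPKM, within the day 0 values or below them (log2 −0.09, SE 0.19, limma adjusted p = 0.712).

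Spry1 and Spry2 are feedback inhibitors of growth factor signalling through Ras and ERK. Spry1 was at 2.59, 1.73 and 2.96 FPKM in uninjected livers, at 3.75, 5.12 and 4.43 on day 21 and at 7.31, 13.2 and 5.48 on day 45. Day 100 gave 11.5 FPKM and day 200 gave 9.45. Each later group lay above day 0 without overlap. The mean at day 45 was 3.57-fold that of day 0 and that of days 100 and 200 was 4.31-fold. The log2 changes were 0.67 (SE 0.28), 1.43 (SE 0.28) and 1.75 (SE 0.31; limma adjusted p = 0.180, 0.00312 and 0.00131). In the knockout Spry1 was at 5.06, 9.14 and 5.16 FPKM, also above every day 0 liver (log2 1.09, SE 0.28, limma adjusted p = 0.0126). That call was lost in 3 of 12 alternative fits: without knockout replicate B (0.85, adjusted p = 0.0672), without day 0 replicate B (0.94, adjusted p = 0.0554) and in a fit of only the 2 groups (adjusted p = 0.0508).

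Spry2 was at 0.594, 0.430 and 0.638 FPKM in the day 0 livers and at 0.991, 1.18 and 1.23 in those of day 21. It reached 1.66, 2.34 and 1.39 FPKM on day 45, 2.08 on day 100 and 1.71 on day 200. Again no later group overlapped day 0. The mean was 3.25-fold that of day 0 at day 45 and 3.42-fold at days 100 and 200. On the log2 scale with 1 added, which understates changes at such low levels, the changes in order of time were 0.46 (SE 0.15), 0.84 (SE 0.15) and 0.90 (SE 0.16) (limma adjusted p = 0.0798, 0.00178 and 0.00145). In the knockout the livers had 0.869, 1.12 and 0.983 FPKM (log2 0.36, SE 0.15, limma adjusted p = 0.0745). With 0.1 added in place of 1, day 21 (0.92, adjusted p = 0.0400) and the knockout (0.75, adjusted p = 0.0395) passed the threshold, and in a fit of only the 2 groups day 21 did (0.46, adjusted p = 0.0275).

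Tpm1 was at 24.7, 18.1 and 19.5 FPKM in the uninjected livers, then at 26.1, 29.4 and 34.0 (day 21) and at 46.7, 63.3 and 52.3 (day 45). It stood at 99.7 FPKM in the day 100 liver and at 75.9 in the day 200 liver. Each later group lay above day 0. The log2 changes were 0.50 (SE 0.18), 1.34 (SE 0.18) and 2.03 (SE 0.20; limma adjusted p = 0.119, 5.76e-04 and 6.83e-05). In the knockout the livers had 51.2, 55.4 and 43.3 FPKM (log2 1.23, SE 0.18, limma adjusted p = 7.54e-04). The calls at day 45, at days 100 and 200 and in the knockout held in every alternative fit, over which the change at day 45 was 1.10 to 1.46.

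**Figure D3:**
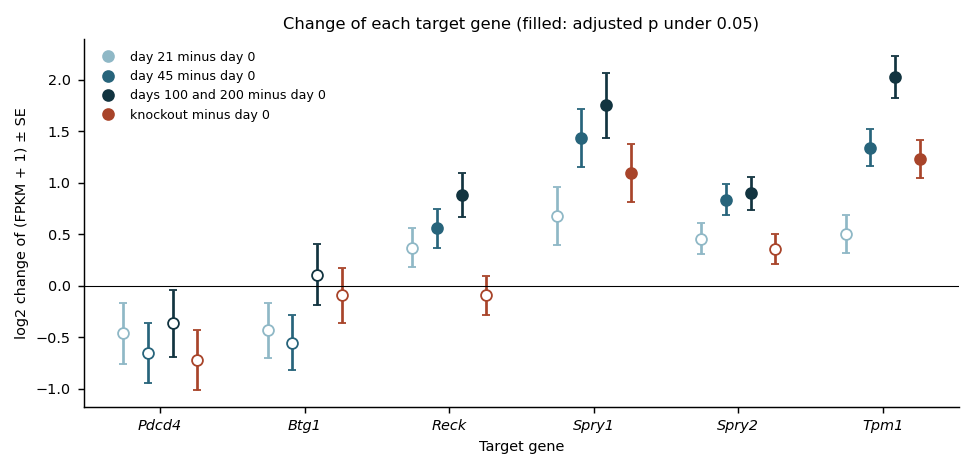
log2 change of FPKM + 1 with SE for each target gene in 4 comparisons with day 0, where filled points passed the limma threshold of an adjusted p of 0.05. Spry1, Spry2 and Tpm1 lie above 0 in all 4, Pdcd4 lies below 0 in all 4 with no filled point, and Reck lies near 0 only in the knockout.

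The question whether livers with more miR-21 had less of its targets could be put to 11 floxed livers. Their small RNA and RNA-seq libraries were joined by day and replicate letter, on the assumption, which the labels do not state, that these name the same liver. The 3 livers highest in miR-21 were day 21 replicate C (33.0%), day 0 replicate B (22.4%) and day 45 replicate A (12.5%). Pdcd4 stood at 23.6, 51.8 and 27.7 FPKM in them, the lowest and the highest of all 11 livers among them. The liver lowest in miR-21, day 0 replicate C with 1.70%, had the highest Btg1 (20.2 FPKM). Permutation tests were made for 8 relations with miR-21, those with the 6 genes, with its host gene and with miR-122. Correlations with miR-21 were also computed for other microRNAs and all tested genes, and slopes were fitted for all tested genes. Pearson and Spearman correlations with miR-21 were −0.27 and −0.21 for Pdcd4, 0.03 and 0.15 for Reck, −0.06 and −0.02 for Spry1, 0.06 and 0.03 for Spry2 and 0.04 and 0.03 for Tpm1. None of these passed a permutation test (two-sided p for r between 0.419 for Pdcd4 and 0.942 for Reck). For Pdcd4, r was 0.59 without day 0 replicate C and day 21 replicate C, the livers farthest from the median. Without the same livers it was −0.12 for Reck, −0.36 for Spry1, −0.31 for Spry2 and −0.32 for Tpm1.

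Btg1 was lower where miR-21 was higher, with r = −0.68 and rho = −0.70 (permutation p = 0.0201 and 0.0195, two-sided, n = 11 livers) and r = −0.60 without those 2 livers. This was in the lowest 0.564% of r among all tested genes. In limma the slope was −0.25 per doubling of miR-21 (SE 0.08), with an unadjusted p of 0.0123 and an adjusted p of 1 over 11354 genes. Fitted within days over the 9 livers of days 0, 21 and 45, the slope was again −0.25 (SE 0.08, limma adjusted p = 0.834). It was −0.16 (SE 0.13) without day 0 replicate B and −0.19 (SE 0.11) without day 0 replicate C. Within days the slopes of the other 5 genes were −0.16 (SE 0.10) for Spry1, −0.05 for Reck and Spry2, −0.04 for Pdcd4 and −0.03 for Tpm1. For Pdcd4 the slope was −0.27 (SE 0.11, limma adjusted p = 0.690) without day 0 replicate B and −0.0066 without C. No gene of the 11354 passed the threshold in either fit (0% and 0%), where 295 and 552 had an unadjusted p below 0.05.

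**Figure D4:**
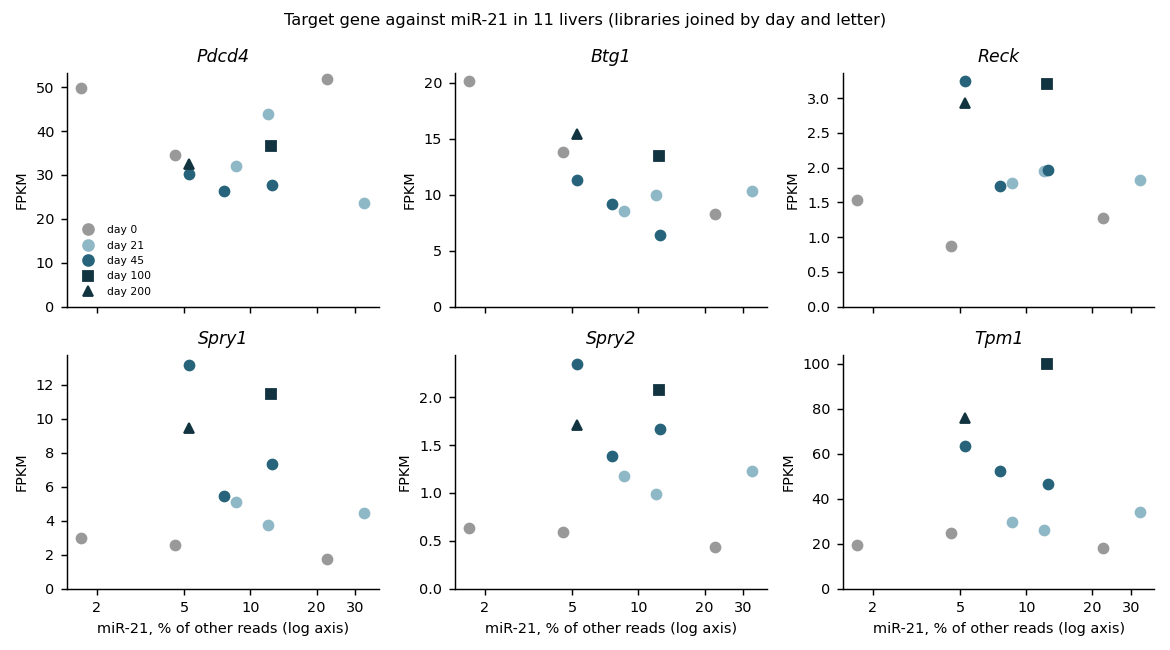
FPKM of each target gene against miR-21 as a percentage of reads other than miR-122 (log axis) in 11 livers, by day, with the 2 libraries of a liver joined by day and replicate letter. Btg1 falls from 20.2 FPKM at the lowest miR-21 to between 6.41 and 13.5 in livers above 12% (r = −0.68), while Pdcd4 has its highest and its lowest value in the 2 livers with the most miR-21.

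The host gene of miR-21, listed under the older symbol Tmem49 (Vmp1), was at 51.3, 58.4 and 46.8 FPKM in uninjected livers and at 47.8, 61.7 and 76.1 in those of day 21. On day 45 it had 53.9, 61.7 and 71.1 FPKM, on day 100 66.3 and on day 200 54.9. The groups overlapped, and the log2 changes of 0.22, 0.25, 0.21 and, in the knockout, 0.03 did not pass the threshold (limma adjusted p = 0.689, 0.541, 0.611 and 0.938). Day 21 replicate C, the highest in miR-21, was also the highest of the floxed livers in Tmem49. Over the 11 livers r was 0.57 and rho 0.48 (permutation p = 0.0677 and 0.139), and r was 0.03 without day 0 replicate C and day 21 replicate C. Of 16 tested genes of the host and of the signals known to induce miR-21, 1, 5 and 6 were called higher at day 21, day 45 and days 100 and 200, 7 in the knockout and 0 lower in any. These are 6.25%, 31.2%, 37.5% and 43.8%, beside 6.2%, 23.7%, 28.4% and 19.3% of all tested genes. Socs3, which is induced by Stat3 signalling, rose from 4.44 to 17.5 FPKM at day 45 (log2 1.86, SE 0.30, limma adjusted p = 0.00123) and Tgfb1, a growth factor of fibrosis, from 2.29 to 6.99 (1.26, SE 0.36, 0.0205). Stat3 itself went from 24.4 to 33.4 FPKM (0.44, SE 0.13, 0.0262), and Nfkb1 and the AP-1 member Fosl2 rose by 0.73 and 0.86. In all 5 of these genes no day 45 liver overlapped day 0. Stat3 apart, they were named because they passed the threshold at day 45, so that this adds no support. The share of all genes without overlap was not counted.

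Of 12 tested genes that act with the targets, 1, 3, 6 and 6 were called higher at day 21, day 45, days 100 and 200 and in the knockout, and 1 was lower in the knockout. The shares higher are 8.33%, 25%, 50% and 50%, beside the same 6.2%, 23.7%, 28.4% and 19.3% of all tested genes, so that the count at day 45 was near the general share. The gelatinase Mmp2, which Reck inhibits, rose from 1.38 to 14.1 FPKM at day 45 (log2 2.48, SE 0.43, limma adjusted p = 0.00168), the sheddase Adam10 from 8.22 to 19.3 (1.12, SE 0.31, 0.0185) and Etv5, a transcription factor downstream of ERK, from 1.02 to 2.53 (0.79, SE 0.19, 0.00868). Of 9 tested family relatives, 2, 2, 3 and 2 were called higher and none lower, which is 22.2%, 22.2%, 33.3% and 22.2%, beside 6.2%, 23.7%, 28.4% and 19.3% of all genes. Tpm4 rose from 12.9 to 57.0 FPKM at day 45 (2.06, SE 0.19, adjusted p = 8.24e-05) and Tpm3 from 19.8 to 34.2 (0.75, SE 0.22, 0.0252), both other tropomyosins.

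Of 21 tested genes from a longer list of targets that others have reported for miR-21, 1, 7 and 12 were called higher at day 21, day 45 and days 100 and 200, and none lower (4.76%, 33.3% and 57.1% higher, beside 6.2%, 23.7% and 28.4% of all genes). In the knockout 7 were higher and 2 lower (33.3% and 9.52%, beside 19.3% and 14.5%). Their median log2 change at day 45 was 0.45, beside 0.20 for all tested genes. Of the 24 genes of this longer list, 15 are also among the predicted targets below, so that the 2 lists are not separate sets. The largest rises at day 45 were those of Timp3, an inhibitor of metalloproteinases (6.15 to 24.1 FPKM, log2 1.70, SE 0.28, limma adjusted p = 0.00131), and the small GTPase Rhob (10.1 to 35.8, 1.68, SE 0.54, 0.0354). The TGF-β receptor Tgfbr2 (5.72 to 19.8, 1.62, SE 0.26, 0.00125) and the matrix protein Tgfbi (18.5 to 57.8, 1.60, SE 0.27, 0.00159) followed. Smad7, which inhibits TGF-β signalling, rose by 0.98 (0.00298) and the Notch ligand Jag1 by 0.93 (0.0451).

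A list of predicted miR-21 targets came from sequence (TargetScan), and these samples entered it only through a minimum level (FPKM above 1). All of its 193 genes were in the table, 191 were tested, and the list includes Pdcd4, Reck and Spry1 of the 6 genes. A match to the seed of the 3 forms above was found for 168 of the 191 (88%), against 11.2% of the tested genes with a 3′ untranslated region. At day 45 limma called 32 of them higher (16.8%, beside 23.7% of all genes) and 3 lower (1.57%, beside 2.99%), and their median log2 change was 0.16, beside 0.20 for the other tested genes. At day 21, 6 were higher (3.14%, beside 6.2%) and 3 lower (1.57%, beside 1.42%), with a median of 0.12 and 0.06 for the others. At days 100 and 200, 40 were higher (20.9%, beside 28.4%) and 2 lower (1.05%, beside 3.21%), with medians of 0.29 and 0.31. With centring, day 45 gave 18 higher (9.42%, beside 14.5% of all genes) and 11 lower (5.76%, beside 7%). Without day 45 replicate B, 16 were higher at day 45 (8.38%, beside 14.4%) and without day 0 replicate B 21 were (11%, beside 16.9%). Without day 100, 17 were higher at days 100 and 200 (8.9%, beside 13.7%). At day 21 the count higher was 0 without day 0 replicate B, 2 without day 21 replicate B and 1 without day 21 replicate C, beside 1.74%, 2.96% and 1.78% of all genes. The largest rises at day 45 were those of the chemokine Cxcl10 (4.63 to 25.9 FPKM, log2 2.33, SE 0.50, limma adjusted p = 0.00507) and of Timp3, Rhob, Tgfbr2 and Tgfbi, given above. The falls were those of Ppp1r3b, which directs a phosphatase to glycogen (111 to 26.8 FPKM, −2.11, SE 0.41, 0.00296), the manganese exporter Slc30a10 (14.0 to 3.36, −1.81, SE 0.32, 0.00177) and Pgrmc2 (23.9 to 15.2, −0.61, SE 0.12, 0.00285).

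In the knockout 23 predicted targets were higher (12%, beside 19.3% of all genes) and 43 lower (22.5%, beside 14.5%), and their median was −0.39, beside 0.02 for the others. The 3 knockout livers differed. Against the day 0 mean, the median of the predicted targets minus that of the other genes was −0.75 in replicate A and −0.54 in B, but 0.06 in C. It was between −0.16 and 0.17 in the 8 injected floxed livers. Without replicate C, 113 of 191 were called lower (59.2%), beside 30.7% of all genes, and without replicate A or B it was 16 or 14, beside 5.65% and 4.89% of all genes. In a fit of only the 2 groups, 6 were lower and 5 higher (3.14% and 2.62%, beside 2.46% and 7.31% of all genes), and with the replicate letters as a block 27 were lower (14.1%, beside 10.7%). Without day 0 replicate B or C, 17 or 20 were lower (8.9% and 10.5%, beside 7.05% and 7.87%). Stag2 had a log2 difference of −1.39 (SE 0.43, limma adjusted p = 0.0281) that rests on A and B, and Srsf7, a splicing factor, was at 9.93, 13.3 and 15.5 FPKM in A, B and C against 16.8 to 20.48 at day 0 (−0.55, SE 0.19, 0.0414). At day 45 neither passed the threshold (−0.06 and −0.09, limma adjusted p = 0.945 and 0.804).

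**Figure D5:**
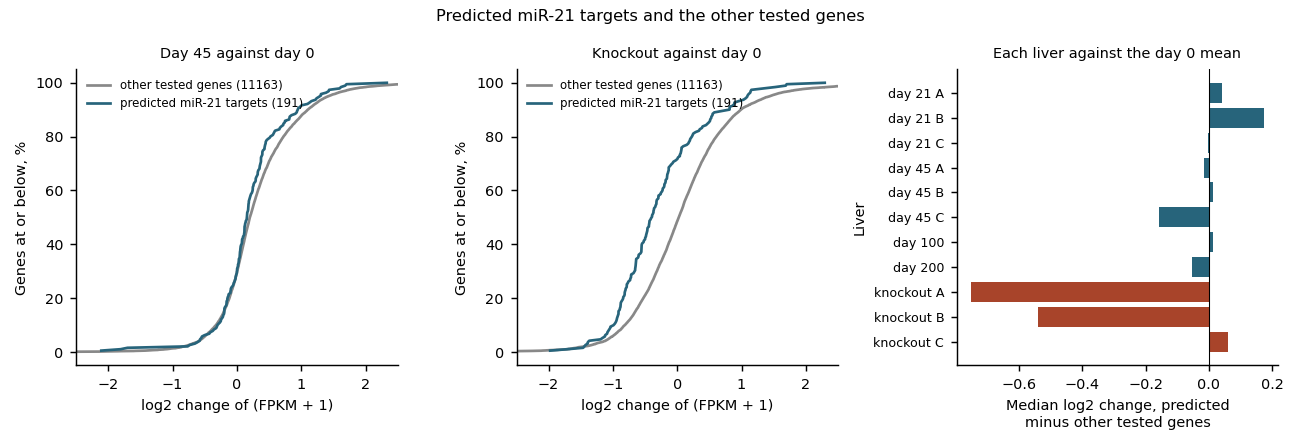
Left and middle, the percentage of genes at or below each log2 change (FPKM + 1) for the 191 predicted miR-21 targets and all other tested genes, at day 45 and in the knockout against day 0; right, the median of the predicted targets minus that of the other genes in each liver against the day 0 mean. The curves lie close at day 45, and in the knockout the predicted targets lie to the left, with bars of −0.75 and −0.54 in replicates A and B and 0.06 in C.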

How the data were processed

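Small RNA libraries of 42 livers and RNA-seq libraries of 14 livers were used. The authors aligned small RNA reads to mouse microRNAs with Bowtie 0.12.7 (submitters' processing notes) and deposited RPM with 1 added to each value. The treatment of reads with several matching microRNAs is not given in the sources used here. The 1 was subtracted, and values were rescaled to the reads other than miR-122. Reads behind a value were read from the steps of the low values, all of which were whole multiples of a step within 0.1. For RNA-seq the authors aligned poly-A reads to mm9 with TopHat and deposited FPKM from Cufflinks 2.2.1, scaled to the upper quartile. FPKM hold no fragment numbers, and depth was not estimated. Rows of 1 symbol were summed.

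Tests were made with limma 3.58.1 (R 4.3.3; lmFit, then eBayes with a trend) after adding 1 and taking log2. microRNAs had to average 10 RPM or more and entered 3 fits (floxed days 0 to 45; wild-type ages; day 0, LKO and LKO plus Cre). Genes had to average 1 FPKM or more, and their 5 groups shared 1 fit. p-values were adjusted by Benjamini-Hochberg over all features of a comparison, with a threshold of 0.05. Correlations had 100000 permutations. The fits were tested on simulated data. The 6 genes, the lists and the tests were chosen with earlier results of these data known. Named besides the 6 genes are the host gene and Stat3, at most 6 genes of each list past the threshold at day 45, at most 5 rises and 5 falls of predicted targets whose groups do not overlap, Stag2, Srsf7, and the 5 microRNAs most correlated with miR-21 in each set of livers. Of the 19 symbols of host and inducers, Fosl1, Il6 and Vmp1 were not tested under these names, and the host gene is deposited as Tmem49. Mature sequences are from RefSeq (GRCm38.p6), and coordinates are mm9. Same letters do not mark the same animal in different groups, but small RNA and RNA-seq libraries of the same day and letter were taken as 1 liver. Sex is not given. Alternatives tried were other scalings, pseudocounts and filters, the replicate block, fits without the trend or with 2 groups, and leaving out each library.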

Additional observations from a re-analysis of the deposited data

How the results depend on the processing

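The miR-21 results moved with the scaling and with single livers of day 0 and P270. Over all reads including miR-122, the difference of LKO from day 0 was 2.27 and passed the threshold, as did days 14, 21 and 45 (2.78, 2.86 and 2.09), and E14 and E18 against P270 turned to 0.33 and 0.43. With each library centred on its median, day 45 was −0.089, LKO −0.12, and E14, E18, P1 and P8 were −4.45, −4.22, −4.02 and −3.66. Over the authors' total, E18, P1 and P8 were 0.32, 0.16 and 0.15. Leaving out 1 library gave 0.08 to 1.94 at day 7, 0.71 to 2.57 at day 14, 0.58 to 2.44 at day 21, −0.34 to 1.52 at day 45, −0.083 to 1.78 for LKO, 0.29 to 0.94 for LKO plus Cre, and −2.87 to −0.34, −2.15 to 0.38, −2.31 to 0.22 and −2.32 to 0.21 for E14, E18, P1 and P8. Where this left 1 liver in a group, it was assumed to vary like the other groups.

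Outside the wild-type libraries the letters A, B and C do not pair the livers. Correlations of same-letter deviations ran from −0.45 to 0.50 in RNA-seq, −0.23 to 0.35 among floxed small RNA libraries and −0.09 to 0.21 with the LKO libraries. Not every pair there was over 0.1. Wild-type libraries gave 0.091 to 0.50, all positive. In that set A and B of a group of 2 mirror each other, so that 10 of the 20 correlations are distinct, 9 of them over 0.1. With the letters as a block the SE of the wild-type differences of miR-21 was 0.80 in place of 1.05. What the wild-type letters share was not tested. With the letters as a replicate block, 3 target genes were higher at day 45 (all genes 20.9%), 2 in the knockout (15.9%) and 0 at day 21 (3.39%). Reck was lost at day 45 (limma adjusted p = 0.0682), and Spry2, among the 3, entered the test only through the livers in which it was high. LKO against day 0 was −0.083 for miR-21 with the block. Among the miR-21 comparisons and the 6 genes at day 21, day 45 and in the knockout, where it was fitted, the block changed no other call.

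Of the target genes called higher, day 21 had 1 with a pseudocount of 0.1 (all genes 7.98%) and 2 with only the 2 groups compared (12.3%). The knockout had 1 called higher with only the 2 groups (all genes 7.31%). Called lower at day 45 were 2 with centring (all genes 7%) and 1 with only the 2 groups (Pdcd4, all genes 5.01%). Leaving out 1 library gave 0 to 1 lower at day 45 (all genes 1.28% to 2.3%). In the knockout it gave 0 to 1 lower (all genes 4.89% to 30.7%) and 1 to 2 higher (9.47% to 31.7%). Btg1 at days 100 and 200 was −0.23 with centring. Leaving out 1 library gave −0.20 to 0.39 for it there, −0.40 to 0.19 for Btg1 in the knockout and −0.21 to 0.049 for Reck in the knockout. The slope of Spry1 on miR-21 was 0.13 over all reads. Without day 0 replicate B or C, slopes ran from −0.29 to 0.11 for Spry1, −0.17 to 0.025 for Pdcd4, −0.056 to 0.057 for Reck, −0.11 to 0.11 for Spry2 and −0.27 to 0.16 for Tpm1, and within days from −0.16 to 0.0039 for Reck, −0.085 to 0.064 for Tpm1, −0.27 to −0.0066 for Pdcd4 and −0.19 to −0.16 for Btg1.

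Predicted targets with centring gave 18 higher and 11 lower at day 45 (all genes 14.5% and 7%) and 23 and 9 at days 100 and 200 (12% and 4.71%, all genes 15.7% and 8.75%). With no minimum level their median differed from that of other genes by 0.094 at days 100 and 200. Leaving out 1 library gave 0 to 6 higher and 0 to 3 lower at day 21 (all genes 1.74% to 4.52% and 0.361% to 1.26%), 16 to 28 and 3 to 5 at day 45 (14.4% to 22% and 1.28% to 2.3%), 17 to 34 and 1 to 2 at days 100 and 200 (13.7% to 24.5% and 0.617% to 2.43%), and 11 to 27 and 14 to 113 in the knockout (9.47% to 31.7% and 4.89% to 30.7%). With only the 2 groups compared, 14 were higher and 5 lower at day 21 (all genes 12.3% and 3.29%), 9 lower at day 45 (5.01%), 6 lower at days 100 and 200 (4.34%), and 5 higher and 6 lower in the knockout (7.31% and 2.46%). With the replicate block 1 was lower at day 21 (0.749%) and 27 in the knockout (10.7%). The cause of these moves was not tested.

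The planned count tests on recovered reads (edgeR and DESeq2) were not run, although reads were recovered after the added 1 was taken off, since the values as deposited, with that 1, are not whole multiples of a step. Group sizes of 2 and 3 limit every test here.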

Other observations

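All genes with a 3′ untranslated region were set beside the targets by the match they hold. Tested genes with the 8-base match (216 genes, among them Pdcd4, Reck, Spry1 and Spry2) had a median log2 change of 0.16 at day 45, genes with a 7-base match only (1012 genes, with Btg1) 0.15, and genes with no match (9777 genes, with Tpm1) 0.21. limma called 18.1%, 19.2% and 24.5% of them higher. In the knockout the medians were −0.35, −0.24 and 0.06, and 25%, 20.5% and 13.4% were called lower. Knockout replicate C stood apart from A and B in the predicted targets (0.06 against −0.75 and −0.54), and medians by match were not computed for each liver. The groups of genes differ in length, with median 3′ untranslated regions of 2612.5, 2435 and 995 bases. Among genes whose region was longer than the median, the medians were 0.15, 0.14 and 0.25 at day 45. In the knockout they were −0.37, −0.30 and −0.06. The part of length in these values was not tested further.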
